A study of Mus musculus with 6 samples.

Results

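The Kruppel-like factors (KLFs) are transcription factors that bind CACCC and GC boxes in DNA through C-terminal zinc fingers, which the family shares with the Sp factors. Members divide by the cofactors that their other parts bind: some recruit acetyltransferases and mostly activate, others bind the corepressor CtBP, and the rest bind the Sin3 corepressor complex. In blood cells KLFs are known for control of quiescence, migration and lineage choice, as with Klf2 in T cells and Klf4 in monocytes.

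The genes described are 10 KLF genes taken by name: Klf2, Klf3, Klf4, Klf6, Klf7, Klf9, Klf10, Klf11, Klf12 and Klf13, of 21851 genes in each table; the erythroid factor Klf1 is not among them. RNA came from hematopoietic stem cells (HSCs), which mouse bone marrow yielded by cell sorting, in 3 libraries from mice exposed to ionizing radiation (IR) and 3 libraries from control mice (Ctrl), all of genotype WT. The gate asked for Sca-1, c-Kit and CD150 on cells without lineage markers, Flt3 or CD48. The sources used here do not give the radiation dose, the interval to the sort, or the age, sex and number of the mice. The labels number the libraries without saying that they came from separate mice, so the p-values reflect no more than the spread of these libraries, which could be technical. Levels are in FPKM, the fragments of a gene scaled to its transcript length and to the mapped fragments of its library, and an SD is over 3 libraries.

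Low values were spaced as multiples of 1 fragment in a minority of genes, which placed the libraries at about 14400000 to 16300000 fragments. Pearson correlations across genes were 0.9992 to 0.9993 within groups and 0.9960 to 0.9962 between groups on the log2(FPKM + 1) scale. All 10 listed markers of HSCs and of the gate passed the filter on low values, with Kit at 96.7 ± 1.65 FPKM in IR and 97.5 ± 1.72 FPKM in Ctrl libraries. RNA of Cd48 and Flt3, which the gate excludes as surface proteins, was also present. Cd48 was at 351.6 ± 8.003 FPKM in IR and 400.1 ± 3.36 FPKM in Ctrl libraries, and Flt3 at 65.7 ± 1.43 and 125 ± 1.58 FPKM. Only 1.90% of tested genes had a higher mean level than Cd48. Of the genes of the proteins asked for, Ly6a (Sca-1) was at 157 ± 5.17 and 203 ± 5.13 FPKM. Slamf1 (CD150) was lower, at 5.06 ± 0.443 FPKM in IR and 3.57 ± 0.409 FPKM in Ctrl libraries. How far the sorted cells met the gate was not tested.

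KLF transcripts were mostly lower in irradiated HSCs, and the change differed from member to member. Klf2, Klf3, Klf7, Klf10 and Klf11 fell, Klf9 rose, and Klf6 and Klf13 did not pass the test (limma on log2(FPKM + 1), Benjamini-Hochberg adjusted p under 0.05). Klf4 and Klf12 were too low to be tested. Over the 10281 genes tested, those that reached 1 FPKM in 3 or more libraries, 54.7% were called, 28.9% lower and 25.8% higher, and this is the background for the 5 and 1 of 8 tested members. Klf7 reached 1 FPKM only in the Ctrl libraries, so the filter itself fixed its direction. The other 7 reached 1 FPKM in all 6 libraries, and of these 4 were lower and 1 was higher. In a fit without a filter on low values, which takes in all 10 members, 6 were lower, 1 was higher and 3 were not called, where 43.2% of 15010 genes were called, 23.5% lower and 19.7% higher. The IR and Ctrl libraries did not overlap in 6 of the 8 tested members, against 61.7% of all tested genes. IR lay below in 5, against 32.5%, and above in 1, against 29.1%. Klf7 is among the 6 and the 5, where the filter fixed its place in advance.

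**Figure D1:**
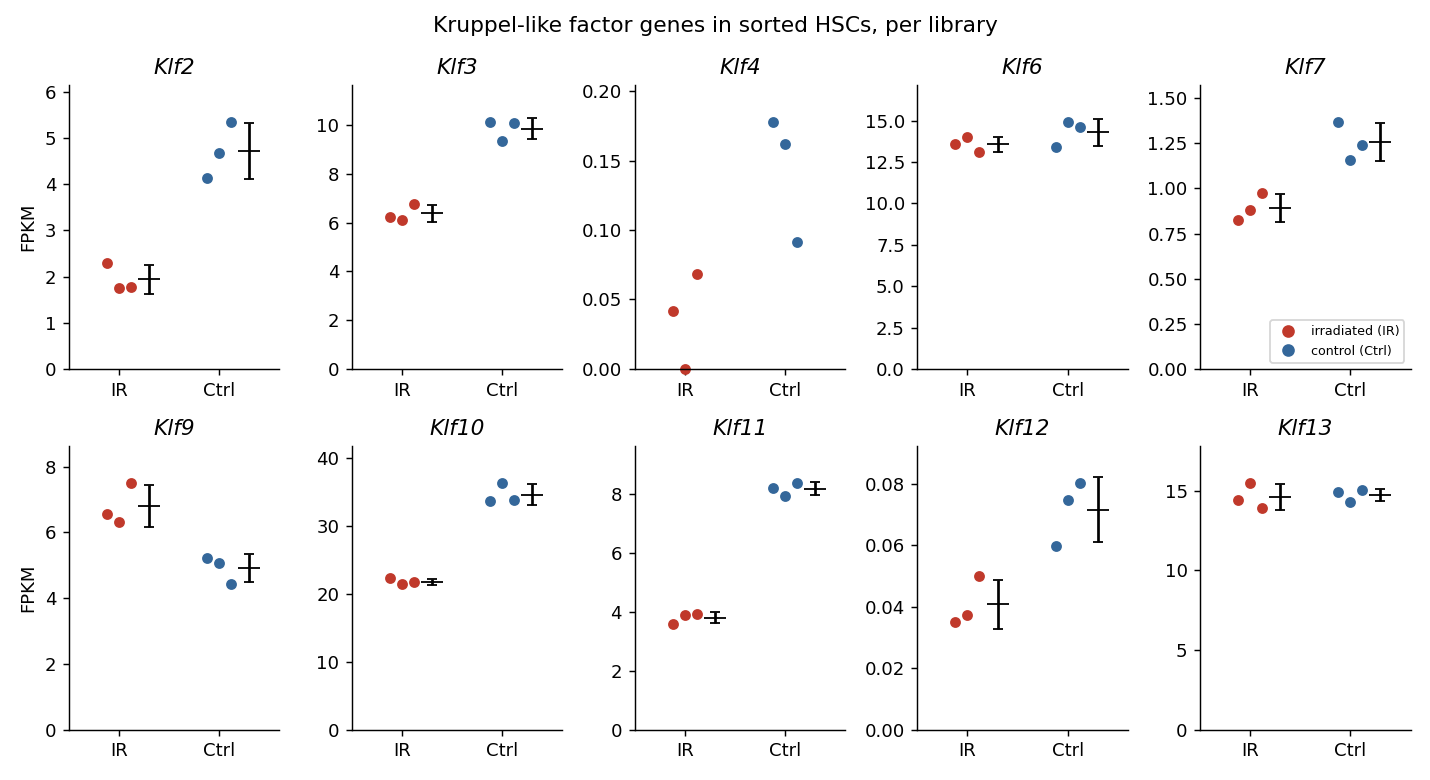
FPKM (y axis, from 0, own scale for each gene) of the 10 KLF genes in 3 IR libraries (red, left) and 3 Ctrl libraries (blue, right), with mean and SD in black; none is drawn for Klf4, which is listed at 0 in 1 library. Klf2, Klf3, Klf10 and Klf11 lay lower in every IR library, Klf9 lay higher, and the groups overlapped in Klf6 and Klf13.

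Klf10 was the most abundant member in both groups. By mean FPKM the order in IR libraries was Klf10, Klf13, Klf6, Klf9, Klf3, Klf11, Klf2, Klf7, Klf12 and Klf4, and in Ctrl libraries Klf10, Klf13, Klf6, Klf3, Klf11, Klf9, Klf2, Klf7, Klf4 and Klf12. Neighbours whose ranges overlapped were Klf13 and Klf6, Klf9 and Klf3, and Klf12 and Klf4 in IR libraries, and Klf13 and Klf6 and Klf9 and Klf2 in Ctrl libraries. Klf9 thus ranked 4 among the members in IR libraries and 6 in Ctrl libraries.

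Promoter sequences are shown for the members with the strongest falls that have an entry and for the member that rose, to set their boxes beside their values. RefSeq promoters (GRCm38.p6, 250 bases before to 50 bases after the start site) were found for 9 of the 10 members, all but Klf10. The windows are chr8:72318812-72319111 (plus strand) for Klf2, chr5:64803271-64803570 (plus strand) for Klf3, chr12:24651121-24651420 (plus strand) for Klf11 and chr19:23140976-23141275 (plus strand) for Klf9. Capitals mark CACCC and GGGCGG on either strand, the MEF2 site and the FOXO motif GTAAACA; neighbouring boxes can run together.
Klf2: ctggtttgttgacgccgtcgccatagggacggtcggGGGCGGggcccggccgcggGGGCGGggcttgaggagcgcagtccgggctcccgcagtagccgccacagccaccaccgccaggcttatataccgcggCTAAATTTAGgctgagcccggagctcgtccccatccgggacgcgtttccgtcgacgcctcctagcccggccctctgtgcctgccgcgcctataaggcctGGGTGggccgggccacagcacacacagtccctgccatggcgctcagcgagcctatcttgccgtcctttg
Klf3: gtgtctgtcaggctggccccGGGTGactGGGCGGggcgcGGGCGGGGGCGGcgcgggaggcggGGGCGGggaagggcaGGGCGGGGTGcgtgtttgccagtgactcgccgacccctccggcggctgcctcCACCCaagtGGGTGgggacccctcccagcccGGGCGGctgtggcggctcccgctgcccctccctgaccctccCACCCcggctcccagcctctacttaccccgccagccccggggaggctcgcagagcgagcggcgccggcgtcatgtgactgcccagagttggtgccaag
Klf11: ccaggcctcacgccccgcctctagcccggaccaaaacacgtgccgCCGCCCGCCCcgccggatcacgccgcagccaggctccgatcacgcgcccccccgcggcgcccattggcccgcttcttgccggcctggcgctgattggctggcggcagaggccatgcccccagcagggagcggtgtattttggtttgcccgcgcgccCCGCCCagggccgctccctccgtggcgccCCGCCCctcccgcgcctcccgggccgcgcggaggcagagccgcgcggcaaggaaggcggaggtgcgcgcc
Klf9: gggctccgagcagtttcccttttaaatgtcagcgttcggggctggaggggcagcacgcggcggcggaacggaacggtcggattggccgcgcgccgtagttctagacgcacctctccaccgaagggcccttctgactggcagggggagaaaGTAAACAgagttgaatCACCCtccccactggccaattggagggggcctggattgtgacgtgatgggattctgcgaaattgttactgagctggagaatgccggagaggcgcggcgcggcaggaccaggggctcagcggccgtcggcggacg

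The MEF2 site, bound by the MEF2 factors that drive Klf2 and Klf4 downstream of the kinase ERK5, had 1 match in the Klf2 promoter, starting 118 bases before the start site. It was in 0.287% of 8016 promoters of tested genes and in no other member's window. CACCC was in 6 of the 9 member promoters and in 61.9% of promoters of tested genes; GGGCGG was in 7 of 9 and in 65.3%. Klf3 had 5 CACCC matches, a number reached by 1.01% of promoters of tested genes, and 6 GGGCGG matches, against 5 or more in 5.48%. The wider KLF consensus CCNCNCCC, which overlaps GGGCGG on the other strand, was in 8 of 9 and in 67.9%; Klf9 was the member without it. Klf9 instead held 3 CCAAT matches, against 3 or more in 5.98%, and 1 GTAAACA match, a motif found in 2.47%. Matches describe letters in these windows and do not show binding.

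Klf2, an activator known to keep T cells quiescent and to be induced by blood flow in endothelium (chromosome 8, 72319033 to 72321656, GRCm38), fell. It was at 2.30, 1.75 and 1.76 FPKM in IR libraries, against 4.13, 4.67 and 5.35 FPKM in Ctrl libraries. Every IR library lay under every Ctrl library, with a gap wider than the range within either group. The means were 1.94 ± 0.315 FPKM in IR and 4.72 ± 0.607 FPKM in Ctrl libraries, 58.9% lower in IR. The log2 fold change was -0.96 (95% interval -1.17 to -0.75, limma adjusted p = 1.87e-05), and 56 of the 10281 tested genes had a lower one. Klf2 is annotated with a single transcript of 1847 bases, and its values correspond to about 46.8 to 142 fragments per library, so counting error alone is near 14.6% at the lowest.

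Klf4, the reprogramming factor also known from monocyte differentiation, was hardly detected. It was listed at 0.0416, 0 and 0.0686 FPKM in IR libraries, against 0.178, 0.162 and 0.0911 FPKM in Ctrl libraries, or about 1.99, 0 and 2.99 fragments against 7.96, 7.96 and 3.98 fragments. The groups did not overlap, on only a few fragments. Without a filter on low values its log2 fold change was -0.14 (limma adjusted p = 0.0241), a scale on which values far below the added 1 FPKM hardly move.

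Klf6, a widely expressed activator known for TGF-beta pathway targets, was among the 3 most abundant members and showed no change past the threshold. It was at 13.6, 14.0 and 13.1 FPKM in IR libraries, against 13.4, 14.9 and 14.6 FPKM in Ctrl libraries, and the groups overlapped. The log2 fold change was -0.07 (95% interval -0.18 to 0.04, limma adjusted p = 0.241). The ratio of Klf2 to Klf6 within a library was 0.125 to 0.170 in IR and 0.309 to 0.366 in Ctrl libraries. It was lower in every IR library (exact permutation p = 0.1, 2-sided, the smallest that 3 against 3 allows). With Klf6 little changed, this repeats the fall of Klf2 and is no further test.

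Klf7, a member of the same branch known from neurons and from fat cells, was near the filter minimum. It was at 0.823, 0.879 and 0.974 FPKM in IR libraries, against 1.37, 1.16 and 1.24 FPKM in Ctrl libraries. Its log2 fold change was -0.25 (limma adjusted p = 0.0105), and 98.1% of tested genes had a higher mean level.

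Klf3, the CtBP-binding repressor that Klf1 is known to activate in red cell precursors (chromosome 5, 64803388 to 64832901), fell. It was at 6.25, 6.13 and 6.76 FPKM in IR libraries, against 10.1, 9.36 and 10.1 FPKM in Ctrl libraries, with no overlap. The means were 6.38 ± 0.336 FPKM in IR and 9.86 ± 0.434 FPKM in Ctrl libraries, 35.3% lower in IR (log2 fold change -0.56, 95% interval -0.67 to -0.44, limma adjusted p = 1.42e-05). Klf1 itself, which carries the erythroid Kruppel-like factor, moved the other way, at 10.4 ± 1.16 FPKM in IR and 4.73 ± 1.19 FPKM in Ctrl libraries (log2 fold change 1.01, adjusted p = 8.93e-05 by limma). Klf12, the other CtBP-binding member, was at 0.0350, 0.0374 and 0.04998 FPKM in IR libraries, against 0.0597, 0.0747 and 0.0804 FPKM in Ctrl libraries, about 3.25 to 7.15 fragments each. Without the filter Klf12 was not called (log2 fold change -0.04, limma adjusted p = 0.144).

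Klf10, known as TGF-beta-inducible early gene 1 (chromosome 15, 38291463 to 38300706), fell most in absolute level. It was at 22.2, 21.4 and 21.7 FPKM in IR libraries, against 33.6, 36.3 and 33.8 FPKM in Ctrl libraries. The IR values lay within 1 FPKM of each other, far from the lowest Ctrl value. The means were 21.8 ± 0.430 FPKM in IR and 34.6 ± 1.52 FPKM in Ctrl libraries, 37.0% lower in IR (log2 fold change -0.64, 95% interval -0.73 to -0.56, limma adjusted p = 7.53e-07).

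Klf11, the closest relative of Klf10 and likewise a Sin3-binding factor of the TGF-beta response (chromosome 12, 24651274 to 24662789), was at 3.58, 3.91 and 3.92 FPKM in IR libraries, against 8.20, 7.95 and 8.39 FPKM in Ctrl libraries. All IR values were under all Ctrl values, and replicates differed little. The means were 3.80 ± 0.192 FPKM in IR and 8.18 ± 0.222 FPKM in Ctrl libraries, 53.5% lower in IR (log2 fold change -0.94, 95% interval -1.05 to -0.82, limma adjusted p = 4.43e-07). Of the 10281 tested genes 63 had a lower log2 fold change. The intervals of Klf11 and Klf2 overlap, and which of the pair had the lower value changed with the pseudocount and with the library left out.

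Klf9, a Sin3-binding factor that glucocorticoids and thyroid hormone are known to induce (chromosome 19, 23141226 to 23168134), was the member that rose. It was at 6.56, 6.30 and 7.51 FPKM in IR libraries, against 5.22, 5.07 and 4.42 FPKM in Ctrl libraries. The lowest IR value lay above the highest Ctrl value. The means were 6.79 ± 0.636 FPKM in IR and 4.90 ± 0.426 FPKM in Ctrl libraries, a ratio of 1.39 (log2 fold change 0.40, 95% interval 0.24 to 0.56, limma adjusted p = 0.00102). Within a library Klf9 was 1.61 to 1.92 times Klf11 in IR and 0.527 to 0.637 times Klf11 in Ctrl libraries. The order of this pair thus turned round. This restates the separate changes of Klf9 and Klf11, whose groups did not overlap, and is no further test.

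Klf13, a Sin3-binding factor known to activate Ccl5 in T cells, showed no change past the threshold. It was at 14.4, 15.5 and 13.9 FPKM in IR libraries, against 14.9, 14.3 and 15.0 FPKM in Ctrl libraries, overlapping throughout. Its log2 fold change was -0.01 (95% interval -0.12 to 0.09, limma adjusted p = 0.805); the sign turned positive with quantile normalization (0.00155) and without IR replicate 3 (0.0167).

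**Figure D2:**
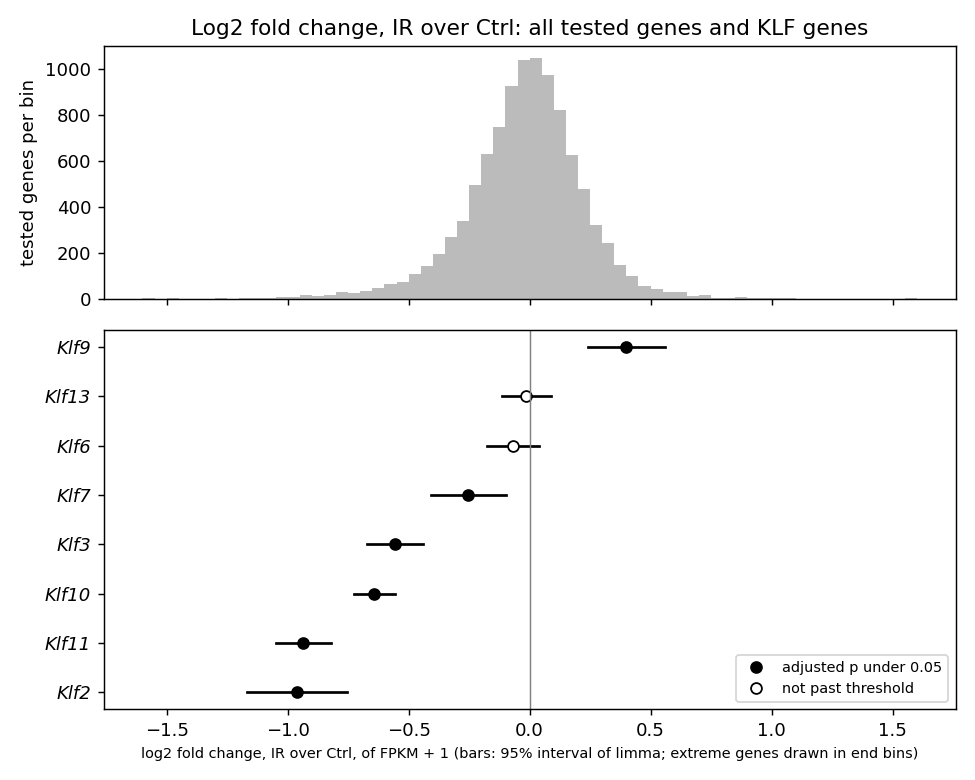
Log2 fold change of IR over Ctrl in FPKM + 1 (x axis, both panels): above, the number of tested genes per bin; below, the 8 tested KLF genes with 95% intervals, filled where limma's adjusted p was under 0.05. Klf2 and Klf11 sit near -0.95 in the left tail of all genes, Klf9 at 0.40 on the right, and the intervals of Klf6 and Klf13 cross 0.

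The summed level of the 10 members was nearly constant within each group and lower after irradiation. It was 69.8, 69.9 and 69.8 FPKM in IR libraries, against 91.2, 94.0 and 93.1 FPKM in Ctrl libraries, a ratio of 0.753 (exact permutation p = 0.1, 2-sided, the smallest possible). Without Klf10 the sum of the other members was 47.5, 48.5 and 48.1 FPKM in IR libraries, against 57.6, 57.7 and 59.3 FPKM in Ctrl libraries, a ratio of 0.826. The mix shifted as well: Klf10 made up 31.2% of the sum in IR and 37.3% in Ctrl libraries, Klf11 5.44% and 8.82%, and Klf2 2.78% and 5.08%. Klf13 made up 20.9% in IR and 15.9% in Ctrl libraries, Klf6 19.4% and 15.4%, and Klf9 9.73% and 5.29%. In each of these 6 shares the groups did not overlap. Klf13 and Klf6 were not called and overlapped in FPKM, so their larger shares follow from the smaller sum.

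**Figure D3:**
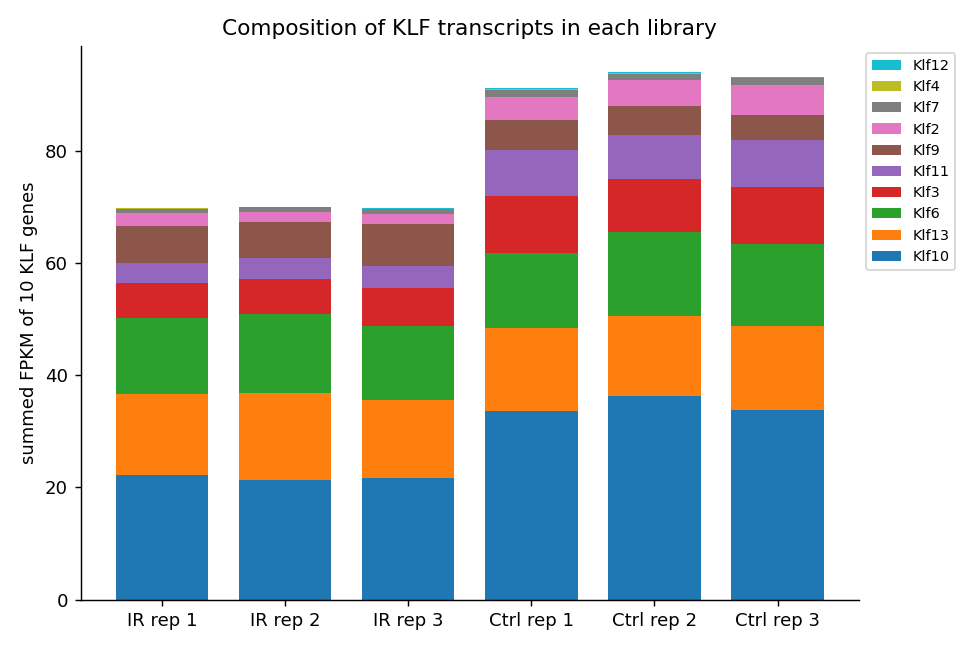
Summed FPKM of the 10 KLF genes (y axis, from 0) in each IR library (left 3 bars) and each Ctrl library (right 3 bars), stacked by gene with Klf10 at the bottom. The IR bars reach 69.8 to 69.9 FPKM and the Ctrl bars 91.2 to 94.0 FPKM; the Klf10, Klf11 and Klf2 blocks are smaller in IR libraries and the Klf9 block is larger.

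Most tested relatives that share the zinc fingers were not called. For all lists and markers from here on, the background is 28.9% of tested genes called lower and 25.8% higher. Of 16 other KLF and Sp genes 6 were tested: Klf1 and Klf16 rose and Sp1, Sp2, Sp3 and Sp4 were not called, with a list median of -0.03 beside -0.01 for all tested genes on the log2 scale. Klf16, a Sin3-binding relative of Klf13, was at 11.5 ± 0.435 FPKM in IR and 9.70 ± 0.363 FPKM in Ctrl libraries (log2 fold change 0.22). Sp3, the most abundant of them, was at 32.5 ± 0.727 FPKM in IR and 33.5 ± 0.880 FPKM in Ctrl libraries, and Sp1, the founding Sp factor, at 3.04 ± 0.246 and 3.36 ± 0.201 FPKM in the same order. Sp2 had a log2 fold change of -0.03 and Sp4 of -0.17; Sp4 passed the threshold only when IR replicate 1 was left out (log2 fold change -0.23, limma adjusted p = 0.0332) or in a fit without the mean-variance trend. Klf5, Klf8, Klf14, Klf15 and Klf17 were not tested.

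In all, 14 tested genes are known to act upstream of Klf2 and Klf4 or on the stability of KLF proteins. Of these 7 fell and 2 rose (median log2 fold change -0.16), beside 28.9% lower and 25.8% higher over all tested genes. The counts and the median pool both kinds of gene. With single libraries left out in turn the falls numbered 5 to 7, and they numbered 5 with quantile normalization and without the filter. Mef2c was at 22.7 ± 0.314 FPKM in IR and 31.5 ± 0.525 FPKM in Ctrl libraries (log2 fold change -0.45, limma adjusted p = 2.24e-06), and Mef2a at 6.61 ± 0.403 and 8.63 ± 0.336 FPKM (-0.34). Vhl, a ubiquitin ligase subunit, had a log2 fold change of -0.33 and Btrc, another, of -0.29. The 2 that rose, named after their values were seen, were the kinase genes Mapk7, which encodes ERK5, at 0.16 and Map2k5, its activator, at 0.14. Both rises were called when IR replicate 1 was left out, 1 when Ctrl replicate 1 or 3 was, and none when IR replicate 2 or 3 or Ctrl replicate 2 was.

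Most tested cofactor genes were not called. Of 12 corepressor genes 8 were not called, 3 rose and 1 fell, beside 25.8% higher and 28.9% lower over all tested genes. Their median log2 fold change was -0.01. The Sin3 scaffold Sin3a was at 12.98 ± 0.301 FPKM in IR and 10.8 ± 0.165 FPKM in Ctrl libraries (0.24), Ctbp2 at 2.92 ± 0.219 and 2.22 ± 0.127 FPKM (0.28), and the deacetylase gene Hdac2 at 143 ± 1.61 and 128 ± 2.51 FPKM (0.15), while Hdac1 had a log2 fold change of -0.09. Of 4 acetyltransferase genes Kat2a rose (0.28) and Kat2b rose (0.23), whereas Ep300 at 0.04 and Crebbp at -0.01 were not called. The Kat2b call was lost without IR replicate 3 (0.19, limma adjusted p = 0.0703) or without Ctrl replicate 3 (0.18, limma adjusted p = 0.0687).

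Genes listed as Klf2 targets from work in other cells fell in 5 of 9 tested cases and rose in 2 (median log2 fold change -0.16). Over all tested genes 28.9% were lower and 25.8% higher. With single libraries left out in turn the falls in this list numbered 4 to 6 and the rises 2 or 3. S1pr1, the sphingosine 1-phosphate receptor for egress from lymphoid organs, was at 6.96 ± 0.220 FPKM in IR and 8.78 ± 0.441 FPKM in Ctrl libraries (-0.30), and S1pr4 had a log2 fold change of -0.30. Going against these, Tek, the angiopoietin receptor, was at 5.57 ± 0.142 FPKM in IR and 3.09 ± 0.405 FPKM in Ctrl libraries (0.69), and Thbd, thrombomodulin, named after its value was seen, had 0.26.

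Listed Klf4 targets fell in 6 of 10 tested cases and rose in 1 (median log2 fold change -0.14). The shares over all tested genes were again 28.9% lower and 25.8% higher. With single libraries left out in turn the falls numbered 4 to 6, and they stayed at 6 only without IR replicate 1. They numbered 5 with quantile normalization and without the filter. The cell cycle inhibitor gene Cdkn1c was at -0.40, Bmi1 at -0.22, the cyclin gene Ccnd2 at -0.19 and Ccnb1 at -0.09. The 1 that rose, named after its value was seen, was Cdkn2c at 0.16, a call lost without IR replicate 1, IR replicate 2 or Ctrl replicate 2. Listed Klf6 targets rose in 2 of 6 cases and fell in 1 (median -0.04): Tgfbr1 was at 0.21, Tgfb1 at 0.26 and Hmox1 at -0.21, while Eng at 0.02, Tgfbr2 at -0.09 and Cdkn1a at -0.12 were not called. Tgfb1 stayed past the threshold only without IR replicate 3, at 0.16 to 0.37 over the libraries left out in turn; it missed it without the filter or the trend as well. Hmox1 missed it without IR replicate 2 or 3 or Ctrl replicate 1 or 3, at -0.28 to -0.14 over all 6, under each of 3 other scalings, and without the filter or the trend. Without IR replicate 1 Tgfbr2 passed it (-0.14), and without IR replicate 3 Cdkn1a did (-0.18).

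Of 4 tested genes listed as Klf3 targets, Fam132a rose (0.22) and Klf1 rose (1.01), and the galectin gene Lgals3 at 0.05 and Stard10 at 0.07 were not called (median log2 fold change 0.14). Of 8 tested genes tied to Klf10 and Klf11, several of the TGF-beta pathway, 3 fell and 2 rose (median -0.13). The falls numbered 2 with either other pseudocount, without the filter, under each of 3 other scalings and with the replicate block. They also numbered 2 without IR replicate 2 or 3 or Ctrl replicate 2 or 3, and 4 without Ctrl replicate 1. The signal transducer Smad2 was at 9.85 ± 0.261 FPKM in IR and 11.8 ± 0.00618 FPKM in Ctrl libraries (-0.23). The pro-apoptotic Bcl2l11 had -0.24, and the Smad inhibitor Skil 0.30. The second gene that rose in this list is Tgfb1, with the dependence on single libraries given above. Of 5 listed Klf13 targets 2 fell and 1 rose (median -0.02). Ccl5 was at 3.66 ± 0.620 FPKM in IR and 7.18 ± 1.22 FPKM in Ctrl libraries (-0.81, limma adjusted p = 0.000229), although Klf13 itself was not called. Bcl2l1 had a log2 fold change of -0.02, Hk2 0.09 and Il4 0.53; the Il4 call was lost without IR replicate 1 (0.29), Ctrl replicate 2 (0.36) or Ctrl replicate 3 (0.58), and without the filter or the trend.

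Glucocorticoid-responsive genes, among which Klf9 is counted in other tissues, went both ways. Of 9 tested 6 fell and 2 rose (median log2 fold change -0.19), against 28.9% lower and 25.8% higher over all tested genes. With single libraries left out in turn the falls numbered 5 or 6. Fkbp5, a chaperone cofactor of the glucocorticoid receptor, was at 41.5 ± 0.623 FPKM in IR and 32.0 ± 0.602 FPKM in Ctrl libraries (0.36) and the kinase gene Sgk1 at 3.17 ± 0.252 and 1.89 ± 0.225 FPKM (0.53). Tsc22d3, known as GILZ, was lower at 70.1 ± 0.443 and 81.6 ± 2.85 FPKM (-0.22), and Ddit4, an inhibitor of mTOR signalling, had -0.64.

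Klf2, Klf4 and Klf6 are known to rise within minutes of stimulation or tissue handling, so other genes of that kind are given beside them. Of 16 tested, 6 rose and 6 fell (median log2 fold change -0.04), against 25.8% and 28.9% of all tested genes. Nr4a2, among those that rose, reached 1 FPKM in IR libraries only, so the filter fixed its direction, and 5 of the other 15 rose. Fos was at 237 ± 2.67 FPKM in IR and 311 ± 3.10 FPKM in Ctrl libraries (-0.39), and Socs3 had -0.40, while Jun was at 96.3 ± 4.72 and 77.3 ± 0.729 FPKM (0.31) and Myc had 0.53. Their part in the fall of Klf2 was not tested.

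**Figure D4:**
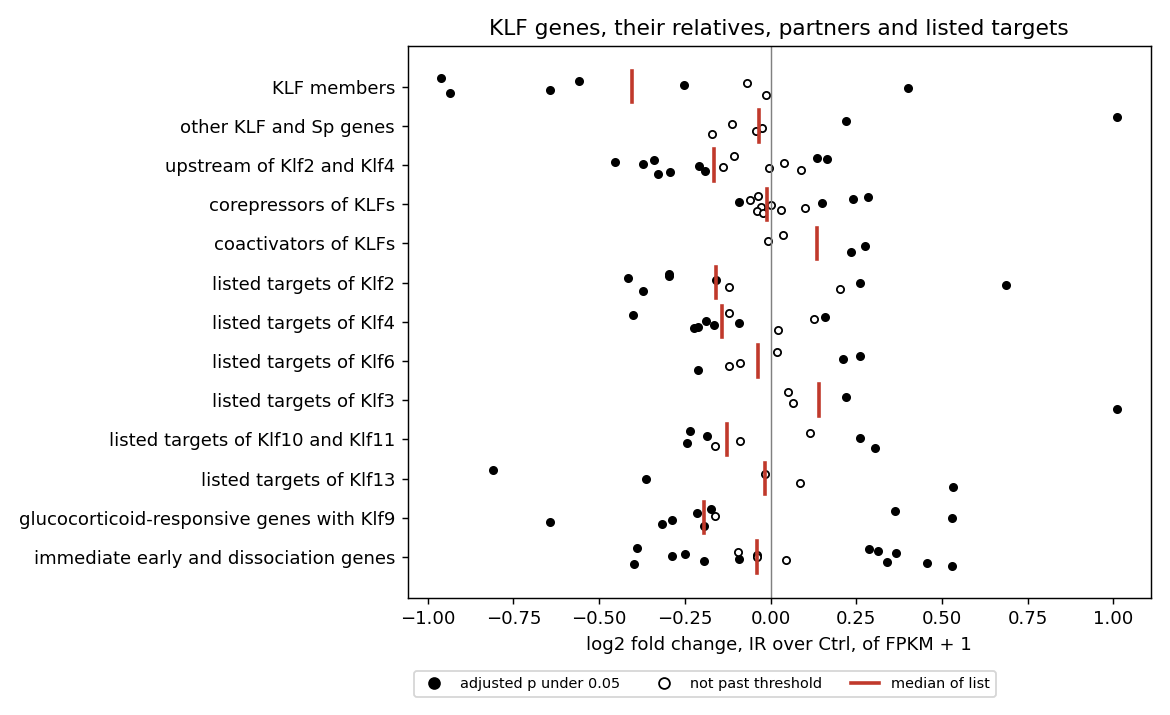
Log2 fold change of IR over Ctrl in FPKM + 1 (x axis) for the tested genes of the KLF set and of 12 lists of relatives, partners and listed targets (rows); filled points had a limma adjusted p under 0.05, and the red bar is the list median. In the KLF set Klf2, Klf11, Klf10 and Klf3 lie at -0.56 or lower and Klf9 at 0.40; the medians of the 12 lists lie between -0.19 and 0.14.

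Markers of cell types in which KLFs are known to be expressed also moved between the groups. The background for these counts is again 28.9% of tested genes lower and 25.8% higher. In bulk samples, fewer cells of a type and less RNA per cell cannot be told apart. Markers that reached the minimum of 1 FPKM in the libraries of a single group could pass in one direction only and are named apart from the counts; summed levels are over the whole list. Of 8 other tested monocyte and macrophage markers 7 fell and 1 rose (Adgre1 reached it in Ctrl libraries only), with a summed level of 551 to 556 FPKM in IR and 654 to 662 FPKM in Ctrl libraries, led by Lyz2 and Ms4a6c. Of 5 other tested neutrophil markers 4 fell, with Ltf and Retnlg at the minimum in Ctrl libraries only (summed level 86.5 to 89.4 FPKM in IR, 135 to 139.6 FPKM in Ctrl libraries), led by S100a8 and S100a9. Of 4 other tested endothelial markers 2 fell, with Cldn5 at the minimum in Ctrl libraries only (summed level 52.1 to 55.7 FPKM in IR, 66.3 to 67.7 FPKM in Ctrl libraries), led by Pecam1 and Tie1, and the defining genes Cdh5 and Kdr were under 1 FPKM in all libraries.

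Of 3 tested T and NK markers besides Cd4, which reached the minimum in Ctrl libraries only, 2 fell and Nkg7 rose, and the sum, led by Nkg7 and Lck, was 664 to 672 FPKM in IR and 559 to 583 FPKM in Ctrl libraries. The T-cell receptor genes Cd3e and Cd3d were under 1 FPKM and Cd3g at 0 in all libraries. Of 4 B-cell markers 3 fell and Cd79a rose (59.1 to 59.9 FPKM in IR, 78.4 to 85.8 FPKM in Ctrl libraries), led by Cd79b, with Pax5 under 1 FPKM. The stromal genes Col1a1, Col1a2, Lepr, Dcn and Acta2 were under 1 FPKM in all libraries. Of 3 tested stromal markers 3 fell (16.6 to 17.2 FPKM in IR, 20.4 to 21.3 FPKM in Ctrl libraries), led by Pdgfrb and Sparc. In contrast, 5 of 7 erythroid markers rose and 2 fell, besides Ermap, which reached the minimum in IR libraries only (summed level 108 to 115 FPKM in IR, 73.5 to 80.4 FPKM in Ctrl libraries), led by Car1 and Tfrc, and 5 of 6 megakaryocyte markers rose (146 to 159 FPKM in IR, 94.1 to 97.1 FPKM in Ctrl libraries), led by Itga2b and Pf4. The part of these shifts in the KLF changes was not tested.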

How the data were processed

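The deposited tables hold 1 value per gene symbol and library. The values were treated as FPKM, made by the authors with fastp, HISAT2 and StringTie on GRCm38 (mm10) per the submitters' processing notes; versions, annotation and settings were not given in these sources, and the unit was inferred from the values. Stranded libraries were made from polyadenylated RNA, per the labels' protocols. Of 21878 entries, 27 with a date for a symbol were left out. Values at whole fragments (within 0.01) made up 25.9% to 28.2% of low values of single-transcript genes, too few to recover counts; fragments behind a gene were worked back from FPKM, the length of the longest coding GENCODE M21 transcript and these steps, and are approximate.

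Genes that reached 1 FPKM in 3 or more libraries entered limma 3.58.1 (empirical Bayes with trend, 2-sided, pseudocount 1, Benjamini-Hochberg over 10281 genes, threshold 0.05) in R 4.3.3, without a replicate block. A fold change on the log2(FPKM + 1) scale understates the change of low genes; percentages and ratios are of mean FPKM. Alternatives changed the pseudocount, filter, scaling, trend or block, or left out a library. The members, lists and rules were chosen with earlier results of these data known. All 10 members are named, and every tested gene of a list with up to 6, otherwise the 4 with the smallest p; some of these genes are counted in their lists but are not reported here by name. GENCODE M21 places a gene on the other strand at 4 members (Klf3, Klf7, Klf12 and Klf13); whether strand was used in counting is not stated. The members lie on 10 different chromosomes.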

Additional observations from a re-analysis of the deposited data

How the results depend on the processing

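Over 15 alternatives, no tested KLF member changed sides of the threshold in any fit that included it. The log2 fold changes ranged from -1.24 to -0.48 for Klf2, -1.09 to -0.58 for Klf11, -0.66 to -0.56 for Klf10, -0.62 to -0.38 for Klf3, -0.45 to -0.09 for Klf7 and 0.25 to 0.46 for Klf9; the end nearest 0 came from a pseudocount of 5 in each. A minimum of 5 FPKM left out Klf2 and Klf7, which lowered the count of members that fell to 3 and that of companion-list genes that rose to 15, from fewer genes tested. With 1 library left out, 5 members were called lower and 1 higher in every case, and the sum over the members differed by -23.7 to -22.3 FPKM. Among the genes named, signs turned only in ones not called: Klf13 (0.00155 with quantile normalization, -0.0551 to 0.0167 without single libraries), Crebbp (0.0491 with quantile normalization, -0.0432 to 0.0237 without single libraries), Eng (-0.000886 to 0.0426), Lgals3 (-0.0216 to 0.188) and Bcl2l1 (-0.0600 to 0.0219), the last 3 without single libraries. The replicate numbers did not pair the libraries: deviations of same-numbered libraries correlated at -0.0486 to 0.0085, and 1 of 3 IR libraries correlated best with its own number. With the replicate block 2539 genes were higher and 2840 lower, against 2650 and 2972 without it, and the members' calls stayed as they were. No scaling moved the median of all genes by more than 0.0164. Depth limits Klf4 and Klf12, which rest on under 8 fragments per library.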

Other observations

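KLF transcripts carried long 3' untranslated regions. In GENCODE M21, 8 of the 10 members exceeded the median of tested genes, 1066 bases, with Klf2 at 740 and Klf4 at 985 bases below it and Klf7 longest at 6269 bases. The pentamer ATTTA, the core of AU-rich elements that shorten the life of many early-response mRNAs, occurred at least 3 times in 8 members, against 36.2% of 9895 tested genes with such a region. Klf7 had 18 copies, Klf9 8, and Klf3 and Klf6 7 each. Klf10, Klf11 and Klf12 had 4 each, Klf13 3, and Klf2 and Klf4 1 each. Scaled to length, 7 of the 10 members lay above the median of tested genes, 1.27 copies per kb. Klf2 was above it at 1.35, and Klf4 at 1.02, Klf12 at 0.888 and Klf13 at 0.581 were below. By count, the members that fell include Klf2 with 1 copy and Klf3 with 7, and Klf9 with 8 rose. Across tested genes, 27.9% of those with at least 3 copies were called lower, against 29.4% of those with fewer. The part of these copies in the KLF changes was not tested.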
